A study of Mus musculus with 12 samples.

Results

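The genes described here mark 3 kinds of leukocyte that sit inside other tissues: macrophages, B cells and T cells. They are 30 gene symbols, 14 for macrophages, 8 for B cells and 8 for T cells, and a gene was taken where a probe set of the array (a group of short probes against 1 transcript) was annotated with that symbol alone. This gave 29 of the 30 genes with 41 probe sets, out of 18193 genes and 45037 probe sets in all. The level of the T cell gene Lck was not analysed here, and of Lck only the promoter was searched. Where a gene had several, its level is that of the brightest one, by the mean of the 12 arrays.

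RNA was hybridised to a whole-transcriptome mouse array from gonadal white adipose tissue (WAT), skeletal muscle (M. vastus lateralis) and liver. All mice were 12-week-old females of a C57BL/6 congenic line homozygous for a deletion of Ghsr, the receptor of acylated ghrelin, and so were the controls. Tissue was taken 6 h after 1 intraperitoneal injection of unacylated ghrelin (UAG, the ghrelin peptide without its acyl group) at 20 nmol/kg or of saline. Each tissue and treatment had 2 arrays, giving UAG and saline groups in WAT, muscle and liver. There was no wild-type group, and nothing in the labels links an array to a mouse or a tissue to an animal, so that a p-value measures the spread between arrays only. Values are MAS5-type intensities in arbitrary units, and 30 is the intensity threshold of the study's methods, used here as a floor.

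Macrophages are resident in most tissues and clear dead cells, debris and pathogens. Most depend on CSF1 signalling through the receptor CSF1R and on the transcription factor PU.1. WAT macrophages lie between the adipocytes, and liver holds the Kupffer cells, which line the sinusoids, take particles and old red cells out of the blood and carry lectins and scavenger receptors of their own. B cells signal through surface immunoglobulin with CD79A and CD79B, and T cells through a receptor with the CD3 chains and the coreceptors CD4 or CD8. In a tissue extract, fewer cells of a type and less of its RNA in each cell cannot be told apart.

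Promoters of 5 macrophage markers are shown because the comparisons below turn on them: Clec4f and Marco were highest in liver, and Mrc1, Lyz2 and Cd163 were highest in WAT. Each holds the 250 bases before and the 50 after the RefSeq start (GRCm38.p6). Capitals mark matches on either strand to GAGGAA, the core of the PU.1 site, and to TGTGGT, the RUNX site.
Clec4f, chr6:83656067-83656366, minus strand: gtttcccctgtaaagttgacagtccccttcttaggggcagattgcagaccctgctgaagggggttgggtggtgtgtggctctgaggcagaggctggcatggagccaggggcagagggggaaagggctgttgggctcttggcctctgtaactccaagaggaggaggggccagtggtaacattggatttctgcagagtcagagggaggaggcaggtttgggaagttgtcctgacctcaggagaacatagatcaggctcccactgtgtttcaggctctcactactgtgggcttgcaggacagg
Marco, chr1:120504975-120505274, minus strand: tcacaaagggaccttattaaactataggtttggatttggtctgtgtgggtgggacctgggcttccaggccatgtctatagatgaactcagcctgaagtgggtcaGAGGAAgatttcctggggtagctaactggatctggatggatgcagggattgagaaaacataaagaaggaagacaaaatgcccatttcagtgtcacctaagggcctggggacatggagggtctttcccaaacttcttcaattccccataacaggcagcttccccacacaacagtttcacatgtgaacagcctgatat
Mrc1, chr2:14229164-14229463, plus strand: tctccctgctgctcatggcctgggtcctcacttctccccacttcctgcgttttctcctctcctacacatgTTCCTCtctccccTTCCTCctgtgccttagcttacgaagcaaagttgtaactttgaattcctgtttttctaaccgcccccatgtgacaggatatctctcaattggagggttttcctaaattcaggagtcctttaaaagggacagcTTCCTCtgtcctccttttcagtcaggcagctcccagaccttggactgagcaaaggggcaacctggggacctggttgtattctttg
Lyz2, chr10:117282223-117282522, minus strand: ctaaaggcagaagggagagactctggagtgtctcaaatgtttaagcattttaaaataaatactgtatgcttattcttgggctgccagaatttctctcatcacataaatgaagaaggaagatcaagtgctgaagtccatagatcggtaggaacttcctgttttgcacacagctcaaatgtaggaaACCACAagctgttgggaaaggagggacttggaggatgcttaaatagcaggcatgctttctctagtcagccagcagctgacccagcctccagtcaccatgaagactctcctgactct
Cd163, chr6:124304401-124304700, plus strand: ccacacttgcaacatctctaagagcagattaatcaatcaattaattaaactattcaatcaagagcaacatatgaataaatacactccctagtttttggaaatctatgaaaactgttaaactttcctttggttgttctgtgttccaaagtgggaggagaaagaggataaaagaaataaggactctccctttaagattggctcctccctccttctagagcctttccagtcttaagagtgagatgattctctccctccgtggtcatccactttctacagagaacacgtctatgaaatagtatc
Among the 30 symbols, 22 had a promoter in the RefSeq table, 11 of them macrophage markers. The longer PU.1 motif GAGGAAGT was in 0 of these 11 macrophage promoters, 1 of 5 B cell promoters (Cd72) and 1 of 6 T cell promoters (Cd5), against 3.69% of the 27025 genes with a promoter. Its core GAGGAA, which it contains and which was added after the longer motif had been searched, was in 5 of 11 macrophage, 2 of 5 B cell and 5 of 6 T cell promoters against 31.3% of all. TGTGGT was in 2 of 11 macrophage promoters (Lyz2 and Itgax), 0 of 5 B cell and 1 of 6 T cell promoters against 18.9% of all. The octamer ATGCAAAT, a site of B cell promoters, was in 0 of the 22, against 1.97% of all. Mrc1 held 3 matches to the core, beginning at -180, -167 and -35 from the start, and Marco 1, at -146. Lyz2 held a RUNX match at -66. Clec4f and Cd163 held none of the motifs. These are matches of letters in 1 window and not measured sites.

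The arrays carried the tissue markers of their labels. Adipoq, the adipocyte hormone adiponectin, lay between 12280.4 and 14161 in WAT, and Alb, serum albumin, between 10618 and 15547 in liver. Adipoq also lay between 7674 and 11935 on the muscle arrays, which carried the muscle creatine kinase Ckm at 13213 to 14587, so adipocyte RNA was present in the muscle extracts. Some arrays stood apart in other cell types. Muscle UAG 2 carried the neutrophil and marrow granule genes S100a8, S100a9 and Ngp at 2172, 2630 and 1280, against at most 189, 123 and 65.2 on the other 3 muscle arrays. Muscle saline 2 carried the epithelial keratin genes Krt19 and Krt8 at 1015 and 602, against at most 206 and 170 on the other muscle arrays. WAT saline 2 carried the smooth muscle myosin Myh11 at 5590, against at most 703 on the other WAT arrays, and S100a8 at 357. WAT saline 1 carried Ckm at 613, against at most 40.7 on the other WAT arrays, and brown adipocyte genes at a geometric mean of 3006, against at most 568. On the muscle arrays the geometric mean of the brown adipocyte genes lay between 1557 and 3037, with Ucp1 of that list between 1043 and 3713. Liver UAG 2 carried hepatocyte genes at a geometric mean of 17058, against at most 12287 on the other liver arrays, and the highest 3' to 5' ratio of Actb, a measure of RNA quality, at 2.35, against at most 1.94 on the other liver arrays. The part of these cells and of RNA quality in the results below was not tested.

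The macrophage panel was well above 30 in all 3 tissues, while the lymphocyte panels lay near or below it. Of the 14 macrophage markers, 8 were at or above 30 on all 12 arrays and 6 on some. Of the 8 B cell markers, none reached 30 on all arrays, 7 did on some and 1 (Cr2, complement receptor 2) on no array. Of the 7 T cell markers, likewise 6 reached 30 on some arrays and Cd4, the coreceptor of helper T cells, on none. On each array between 56.2% and 56.3% of all probe sets were at or above 30. The geometric mean of the macrophage panel, with values under 30 set to 30, lay between 243 and 275 on the WAT arrays, between 211 and 239 on the liver arrays and between 93.7 and 149.5 on the muscle arrays, so the 3 tissues did not overlap. The B cell panel lay between 32.4 and 38.7 in WAT, between 42.9 and 47.4 in liver and between 30.7 and 32.6 in muscle, with liver above both others without overlap. The T cell panel reached at most 35.7 in WAT, 42.7 in liver and 33.02 in muscle.

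**Figure D1:**
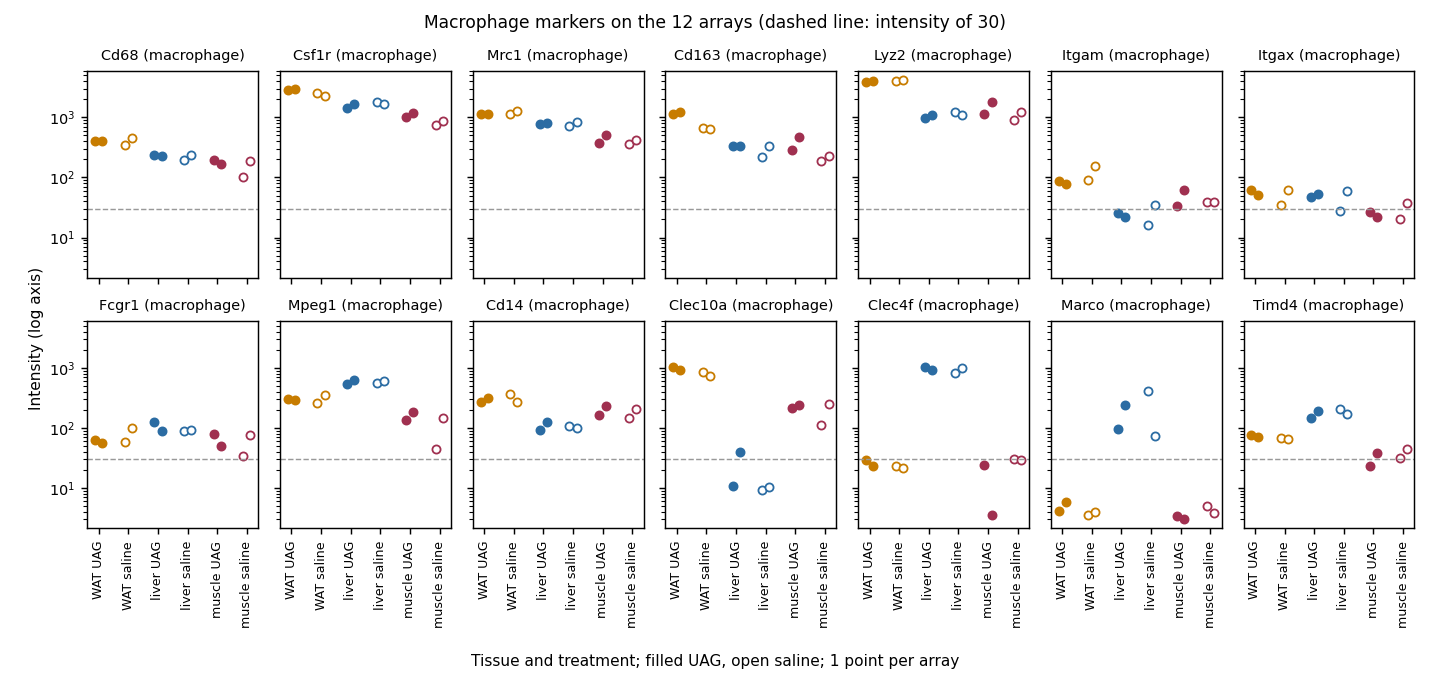
Intensity (log axis) of the 14 macrophage markers on each of the 12 arrays, by tissue and treatment, with UAG arrays filled and saline arrays open. Most markers are highest in WAT, while Clec4f, Marco, Timd4, Mpeg1 and Fcgr1 are highest in liver, and Cd163 is higher on both UAG arrays of WAT than on both saline arrays.

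Tissues were compared first, since which tissue holds most macrophage and lymphocyte RNA frames every UAG result. One limma fit over all 12 arrays gave the difference between tissues averaged over UAG and saline, and a gene was called at an adjusted p under 0.05 and a log2 difference of at least 1. Of the 29 genes, 21 had a mean of at least 30 and were tested. The 3 comparisons share their arrays. Values under 30 were set to 30 before the fit, so a difference whose lower side was raised is a lower limit of its size. A gene that passed the filter through 1 tissue alone, such as Clec4f, had to differ.

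Against muscle, WAT was higher in 8 of the 21 genes tested, all of them macrophage markers, and lower in 0. Over all probe sets 10.1% were called higher and 9.02% lower. Against liver, WAT was higher in 5, with 15.1% of all probe sets called higher, and lower in 3, with 12.4% called lower. Liver was higher than muscle in 4, with 14.5% of all called higher, and lower in 1, with 16.2% called lower. Set against 21 genes, the counts of the comparisons with liver lay nearer to their background than the 8 of WAT over muscle did. The median log2 difference of the 14 macrophage markers was 1.28 for WAT minus muscle, 0.64 for WAT minus liver and 0.66 for liver minus muscle, against 0.05, 0.02 and -0.03 over all probe sets tested.

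Csf1r, the CSF1 receptor on which most macrophages depend, was at 2839 and 2974 on the UAG arrays and 2574 and 2296 on the saline arrays of WAT. It was at 1449 and 1642 (UAG) and 1789 and 1676 (saline) in liver, and at 1026 and 1167 (UAG) and 733 and 861 (saline) in muscle. The 3 tissues did not overlap, in the order WAT, liver, muscle. WAT exceeded muscle by 1.51 ± 0.10 (log2 difference ± SE, n = 4 arrays per tissue, adjusted p = 6.88e-07) and liver by 0.70 ± 0.10 (adjusted p = 0.000107), below the limit of 1. The other 2 Csf1r probe sets had the same order.

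Mrc1, the mannose receptor of tissue macrophages, averaged 1174 ± 78.4 in WAT, 789.95 ± 49.6 in liver and 416 ± 63.4 in muscle (SD, n = 4 arrays each), with no overlap between tissues. WAT exceeded muscle by 1.51 ± 0.11 and liver by 0.57 ± 0.11 on the log2 scale. Cd68, a lysosomal glycoprotein, averaged 402 ± 46.2 in WAT, 225 ± 23.0 in liver and 163 ± 41.2 in muscle. Its WAT arrays lay above all others, and liver and muscle overlapped.

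Lyz2, the lysozyme of myeloid cells, was at 3902 and 3957 on the UAG arrays and 4069 and 4220.3 on the saline arrays of WAT. Liver held 979.7 and 1108 (UAG) and 1241 and 1080.3 (saline), and muscle 1158 and 1814 (UAG) and 915 and 1232 (saline). Only WAT stood apart, by 1.70 ± 0.15 from muscle and 1.88 ± 0.15 from liver (adjusted p = 6.21e-06 and 1.03e-06). The highest muscle array was UAG 2, the one with neutrophil granule genes, and neutrophils also carry lysozyme. The part of those cells in it was not tested.

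Cd163, the scavenger receptor that takes up haemoglobin bound to haptoglobin, averaged 919 ± 307 in WAT, 305 ± 55.1 in liver and 292 ± 126 in muscle (SD, n = 4). WAT exceeded muscle by 1.68 ± 0.17 and liver by 1.55 ± 0.17 (log2 difference ± SE, adjusted p = 1.83e-05 and 1.59e-05), and liver and muscle differed by 0.13 ± 0.17 (adjusted p = 0.524). Its 2 UAG arrays and 2 saline arrays of WAT lay apart, as given below.

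Clec10a, the galactose-binding lectin MGL1 of macrophages and dendritic cells, was at 1051 and 929 (UAG) and 844 and 734 (saline) in WAT. Liver held 10.7 and 39.0 (UAG) and 9.25 and 10.2 (saline), so that 3 of 4 liver arrays were under 30. Muscle held 216 and 240.1 (UAG) and 112 and 246 (saline). The tissues did not overlap, and with values under 30 raised to 30 WAT exceeded liver by 4.78 ± 0.21 (adjusted p = 8.5e-09) and muscle by 2.18 ± 0.21. Against liver this is a lower limit of the difference, since the floor raises the liver side.

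Cd14, which presents bacterial lipopolysaccharide to its receptor, averaged 306 ± 46.5 in WAT, 107 ± 14.2 in liver and 185 ± 38.6 in muscle (SD, n = 4), with no overlap between tissues. WAT exceeded liver by 1.52 ± 0.18 and muscle by 0.74 ± 0.18, the second below the limit. Itgam, the integrin CD11b of myeloid cells, averaged 102 ± 35.4 in WAT, 24.5 ± 7.83 in liver and 43.4 ± 12.9 in muscle. Outside WAT it lay between 15.9 and 62.4, and WAT exceeded muscle by 1.22 ± 0.23 and liver, where 3 of 4 arrays were under 30, by at least 1.66 ± 0.23. Without muscle UAG 1 the difference from muscle was 0.9966, just under the limit.

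Clec4f, the lectin of mouse Kupffer cells, was at most 28.6 in WAT, at 1020.0 and 929 (UAG) and 821 and 977 (saline) in liver and at most 29.9 in muscle. All WAT and muscle arrays were thus under 30, and liver was at least 31.1-fold higher than each (geometric mean, with the other tissue taken at 30). Marco, a scavenger receptor for bacteria and particles, was at most 5.85 in WAT, at 97.4 and 241 (UAG) and 406 and 74.5 (saline) in liver and at most 4.94 in muscle, or at least 5.44-fold higher in liver. Its 4 liver arrays spread widely within both treatments. The other Marco probe set showed the same ordering of liver arrays, at 67.3 and 171 (UAG) and 258 and 61.3 (saline).

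Timd4, a receptor for phosphatidylserine on dying cells that marks resident macrophages, was at 76.9 and 70.2 (UAG) and 66.9 and 64.5 (saline) in WAT. Liver held 146 and 188 (UAG) and 208 and 172 (saline), and muscle 23.0 and 37.8 (UAG) and 31.9 and 44.6 (saline). The 3 tissues did not overlap, in the order liver, WAT, muscle, and liver exceeded muscle by 2.31 ± 0.17 and WAT was lower than liver by 1.35 ± 0.17 on the log2 scale (adjusted p = 5.15e-07 and 4.89e-05).

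Mpeg1, a pore-forming protein that macrophages turn on engulfed bacteria, was at 298 and 287 (UAG) and 261 and 348 (saline) in WAT, 539 and 627 (UAG) and 554 and 596 (saline) in liver, and 136 and 185 (UAG) and 44.6 and 147 (saline) in muscle. The tissues did not overlap. Liver exceeded muscle by 2.35 ± 0.30 and WAT exceeded muscle by 1.39 ± 0.30. Muscle saline 1, at 44.6, was far under the other 3 muscle arrays, and without it WAT minus muscle was 0.96, under the limit. The high affinity Fc receptor gene Fcgr1 and the integrin gene Itgax (CD11c) were the 2 macrophage markers for which no tissue stood apart. Fcgr1 averaged 69.1 in WAT, 98.9 in liver and 60.2 in muscle. Itgax averaged 52.6 in WAT, 47.0 in liver and 26.5 in muscle.

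**Figure D2:**
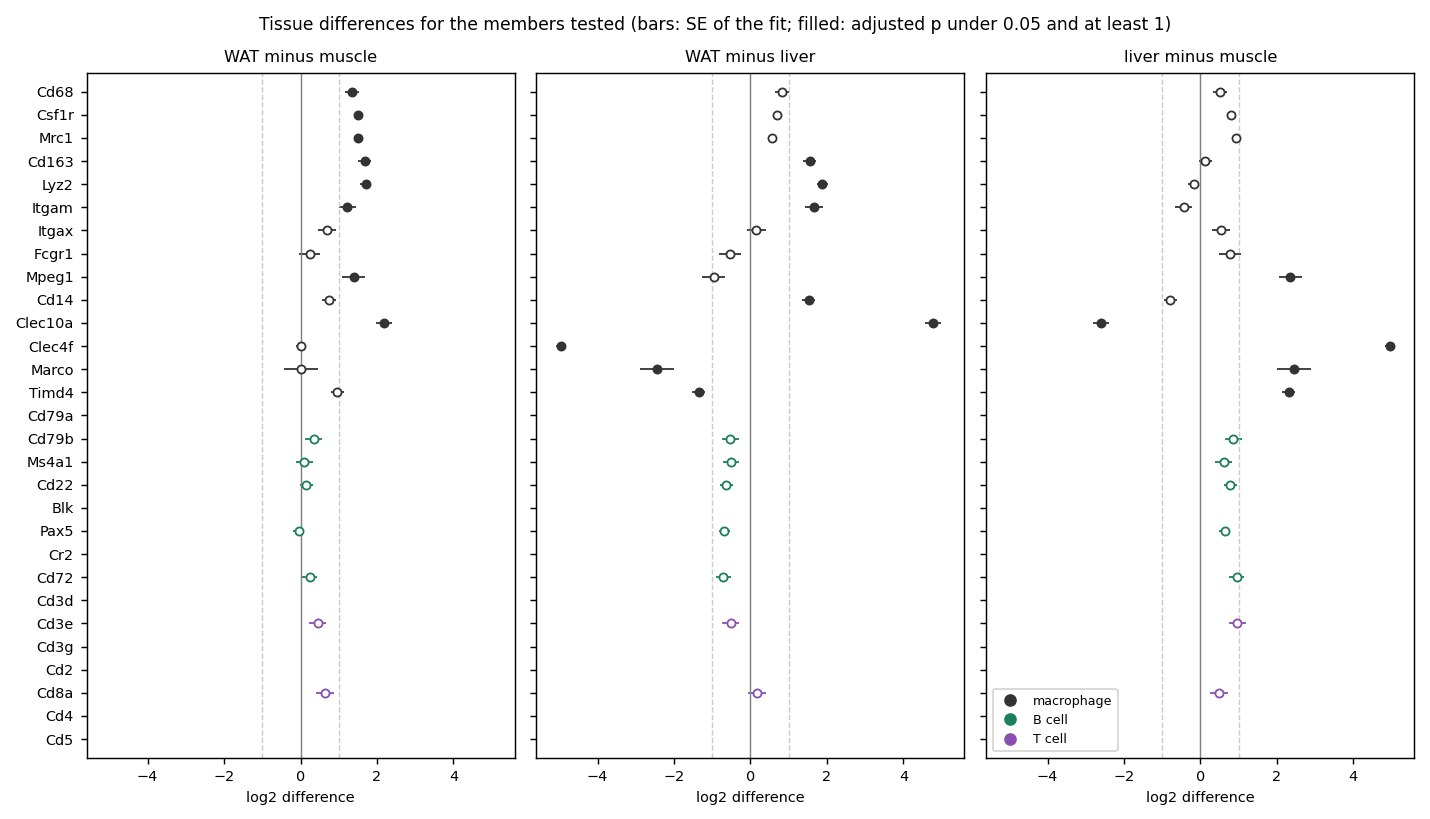
Log2 differences between tissues with the SE of the fit for the 21 members tested, in 3 panels, with called members filled and dashed lines at -1 and 1. Filled points are macrophage markers in every panel, and Clec10a, at 4.78 for WAT minus liver, and Clec4f, at -4.96, lie at opposite ends.

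Other genes of the same cells, from lists that are not part of the panel, were counted in the same fit. Over all probe sets WAT was called higher than muscle in 10.1% and lower in 9.02%. Against liver it was called higher in 15.1% and lower in 12.4%. Of 14 further macrophage genes, 13 were tested, and WAT was called higher than muscle in 9 and than liver in 5, with 0 called lower in both. Among them were the complement gene C1qa (2.12 ± 0.20 over muscle, 1.28 ± 0.20 over liver) and Lyve1, which marks a perivascular kind (1.97 ± 0.22 and 2.18 ± 0.22). Of 6 further Kupffer cell genes, 5 were tested. WAT was lower than liver in 3 of them, Vsig4 (-4.37 ± 0.14), Cd5l (-4.87 ± 0.18) and the iron exporter Slc40a1 (-2.84 ± 0.12), and higher in 2, Folr2 (1.44 ± 0.12) and Id3 (1.14 ± 0.15). Of 7 genes of CSF1 signalling and the myeloid transcription factors, WAT was called higher than muscle in 6, Spi1 (which encodes PU.1) among them at 1.02 ± 0.23. The list holds Cebpa, which adipocytes and hepatocytes also express. Of 6 antigen-presenting genes of MHC class II tested, WAT was higher than muscle and than liver in 5. For Cd74, the invariant chain, the differences were 1.86 ± 0.23 and 2.43 ± 0.23. Of 11 genes that all leukocytes share, WAT was higher than muscle in 8 and than liver in 5.

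The adipocyte RNA of the muscle arrays differed between them. The geometric mean of 6 adipocyte genes was 2709 and 3329 on the UAG arrays and 2034 and 3495 on the saline arrays of muscle. That of the macrophage panel was 125.9 and 149.5 on the UAG arrays and 93.7 and 134 on the saline arrays. Muscle saline 1 was lowest in both lists. How much of the macrophage RNA in muscle came with the fat was not tested.

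**Figure D3:**
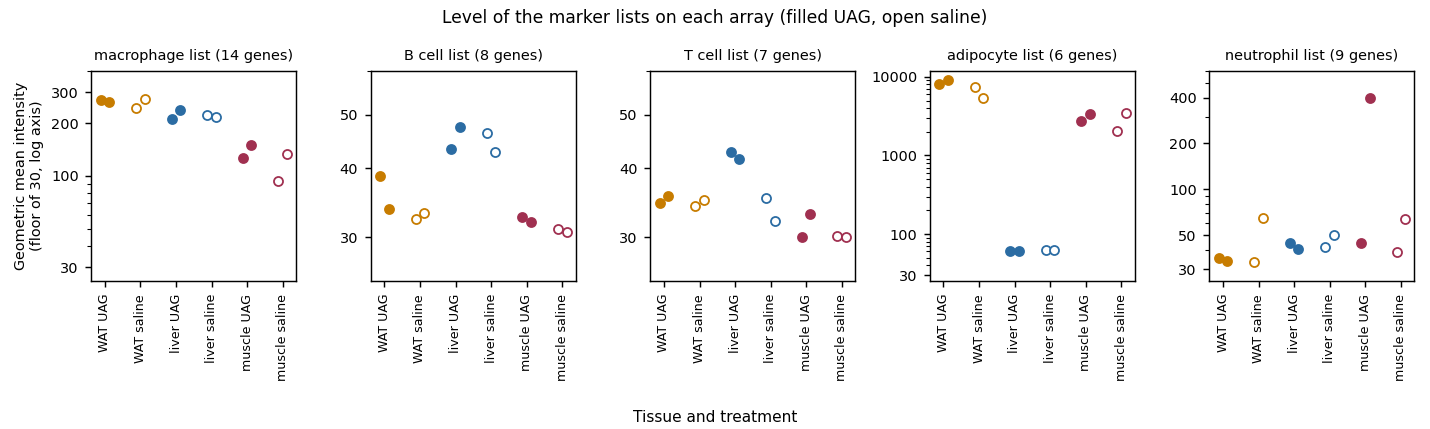
Geometric mean intensity (values under 30 set to 30, log axis, a scale for each panel) of the macrophage, B cell, T cell, adipocyte and neutrophil lists on each array, with UAG arrays filled and saline arrays open. The macrophage panel is lowest in muscle, the B cell panel is highest in liver, and 1 UAG array of muscle stands far above the others in the neutrophil list.

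None of the B or T cell markers was called between tissues, but the B cell markers that were tested leaned towards liver. Of the 8 B cell markers 5 passed the filter, and all 5 were lower in WAT than in liver, with a median log2 difference of -0.63, and 5 of 5 were higher in liver than in muscle, with a median of 0.78. All were under the limit of 1, with an adjusted p under 0.05 for 3 of the 5 against WAT and 5 of the 5 against muscle. By adjusted p alone 27.9% of all probe sets were lower in WAT than in liver and 29.3% higher in liver than in muscle. Since the markers are near 30, the floor shortens these differences. The filter took the mean of all 12 arrays, and Pax5 and Ms4a1 passed it through their liver arrays. Their means were 30.6 and 33.8 in WAT and 27.1 and 24.3 in muscle. The count of 5 is thus partly set by the filter. Of the markers left out, Cd79a averaged 33.7 in WAT and 34.1 in liver, and Blk 21.2 and 21.3. Cr2, under 30 on every array, averaged 9.56 and 14.3.

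Cd22, an inhibitory receptor of B cells, was at 38.0 and 54.7 (UAG) and 36.9 and 34.1 (saline) in WAT, 54.8 and 59.1 (UAG) and 72.1 and 64.3 (saline) in liver, and 39.9 and 29.3 (UAG) and 40.2 and 36.0 (saline) in muscle. Liver arrays lay above all others, with 0.63 ± 0.17 between WAT and liver (WAT lower, adjusted p = 0.00728). Pax5, the transcription factor that fixes B cell identity, was at most 34.7 in WAT, at 48.4 and 55.4 (UAG) and 49.9 and 51.7 (saline) in liver and at most 41.3 in muscle. Liver lay above both without overlap, with WAT lower than liver by 0.68 ± 0.14 (adjusted p = 0.00146). Cd22, Pax5 and Ms4a1 each had a second probe set that stayed under 30 on every array and so shows no order.

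Cd79b, a signalling chain of the B cell receptor, lay between 30.1 and 52.7 in WAT and was at 57.8 and 59.3 (UAG) and 75.9 and 37.0 (saline) in liver, which overlapped. Its partner Cd79a lay between 22.8 and 49.0 in WAT, between 26.9 and 43.4 in liver and at or under 24.3 in muscle. Ms4a1, which encodes CD20, averaged 33.8 ± 8.29 in WAT, 50.04 ± 13.02 in liver and 24.3 ± 10.7 in muscle (SD, n = 4). Cd72, another inhibitory coreceptor, averaged 36.1 ± 12.4 in WAT, 61.4 ± 14.6 in liver and 28.4 ± 5.26 in muscle. Both overlapped between WAT and liver. Blk, a kinase of the B cell receptor, reached 30 on 1 array only, a UAG array of liver at 32.1.

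The immunoglobulin heavy chain gene Ighm, which is in a list of other B cell genes, was ordered otherwise. It was at 1489.5 and 2084 (UAG) and 1268 and 1042 (saline) in WAT, and at most 169.9 in liver and 370.1 in muscle. WAT exceeded liver by 4.24 ± 0.48 and muscle by 2.97 ± 0.48 on the log2 scale. Of the 9 genes of that list 4 were tested. Cd37, a tetraspanin of B cells, also was higher in WAT than in liver, by at least 2.33 ± 0.13, since all 4 liver arrays were under 30. It passed the filter through its WAT arrays alone and so had to differ. Among the genes left out, Fcer2a reached 30 only on the saline arrays of liver, at 35.5 and 32.0. Fcrla reached it only on liver saline 1, at 46.5, and Pou2af1 only on WAT UAG 1, at 34.1. Ighm and the B cell markers of the panel thus put the tissues in different orders.

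Among the T cell markers the CD3 chains Cd3e and Cd3g and the coreceptor Cd8a came nearest to steady detection. Cd3e was at 49.6 and 42.7 (UAG) and 14.0 and 47.1 (saline) in WAT, 75.7 and 95.5 (UAG) and 57.4 and 24.5 (saline) in liver, and 24.96 and 32.3 (UAG) and 19.8 and 13.9 (saline) in muscle. Liver exceeded muscle by 0.96 ± 0.22 (adjusted p = 0.00316), under the limit. Cd3g lay between 26.9 and 35.6 in WAT, between 30.1 and 51.6 in liver and at or under 26.5 in muscle. Cd8a lay between 47.3 and 75.9 in WAT, between 20.1 and 84.7 in liver and between 17.2 and 54.5 in muscle, which overlapped. These values are those of the brightest of 5 Cd8a probe sets, and the others were under 30 on every WAT array. The next brightest lay between 17.1 and 21.5 in WAT, between 24.7 and 41.3 in liver and between 25.5 and 34.0 in muscle. Cd3d reached 30 on 1 array, a UAG array of WAT at 42.3, Cd2 on 2 arrays, and Cd5, a receptor that damps T cell signalling, on 3 of the 4 liver arrays and nowhere else.

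**Figure D4:**
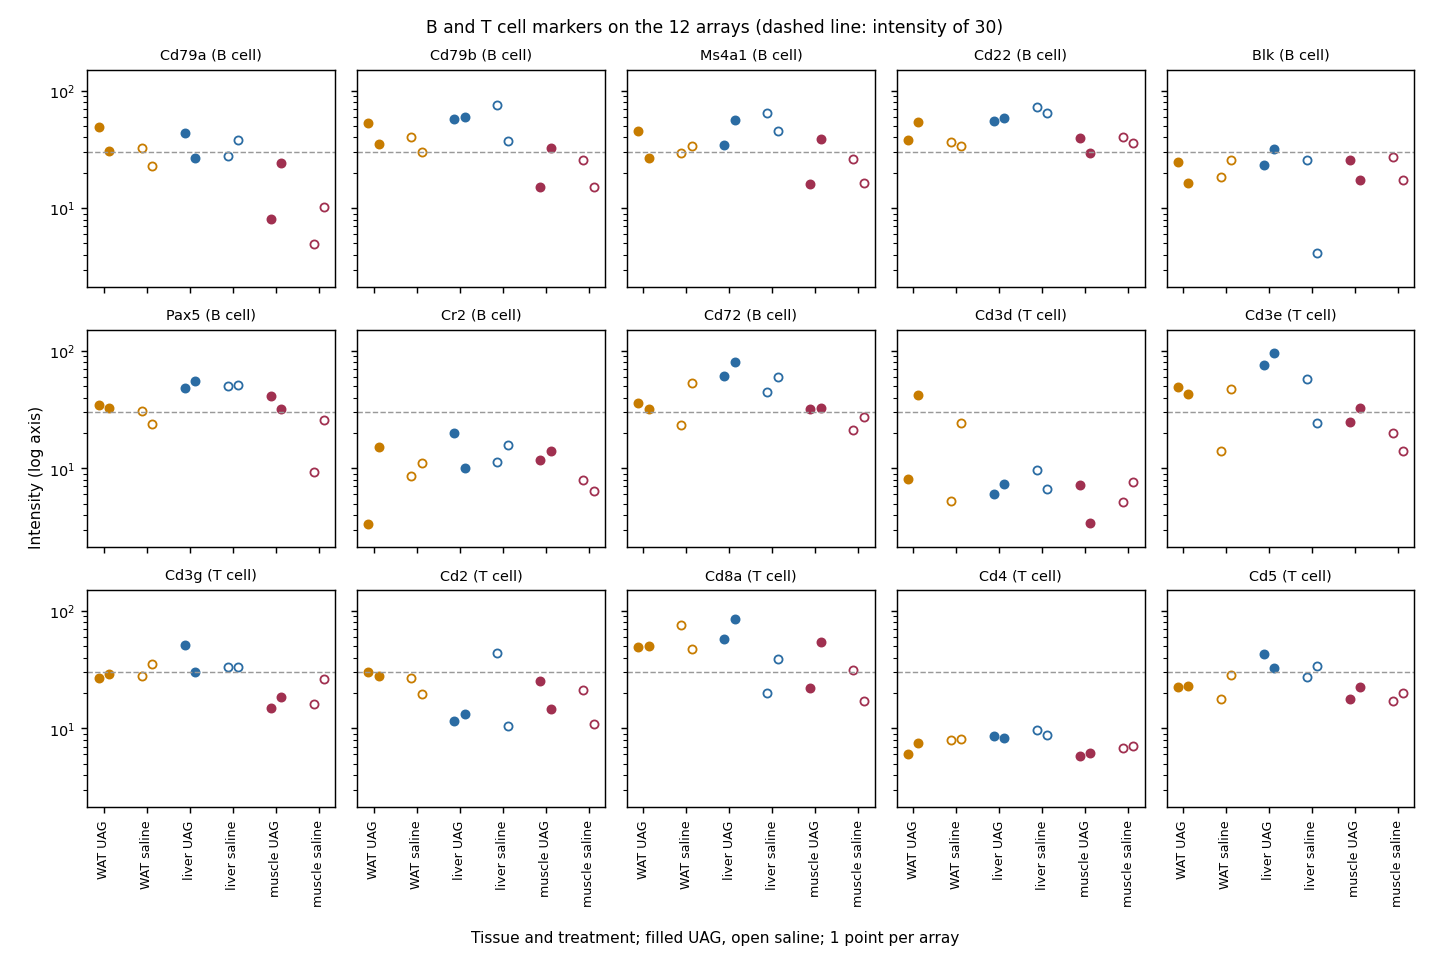
Intensity (log axis) of the 8 B cell and 7 T cell markers on each of the 12 arrays, by tissue and treatment, with UAG arrays filled and saline arrays open. Most points lie near or under the dashed line at 30, and Cd22 and Pax5 lie above it on all 4 liver arrays.

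UAG was then compared with saline in each tissue, which asks whether the markers differed 6 h after the injection. By limma on the 4 arrays of a tissue, at an adjusted p under 0.05, WAT gave 0 calls among the 20 members tested, muscle 0 among 13 and liver 0 among 22. Over all probe sets 0% were called in WAT and in muscle in either direction, and 0.00397% were called higher and 0% lower in liver. Members below an unadjusted p of 0.05 were 1 of 20 in WAT, 2 of 13 in muscle and 2 of 22 in liver, all higher under UAG, against 4.43%, 1.07% and 1.94% of all probe sets higher and 2.37%, 0.797% and 1.72% lower. The 2-fold rule of the study's methods (ratio of mean intensities after a floor of 30) took 0 members in WAT, 0 in muscle and 1 in liver, against 0.443%, 0.239% and 0.425% of all probe sets at or above 2 and 1.53%, 0.291% and 0.346% at or below 0.5.

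Cd163 was the member with the smallest p in WAT. It was at 1138 and 1228 on the UAG arrays, against 674 and 636 on the saline arrays, and the groups did not overlap. The log2 difference was 0.85 ± 0.14 (SE, n = 2 arrays per group, adjusted p = 0.524). The geometric mean of the adipocyte genes did not overlap either, at 8229 and 9093 on the UAG arrays, against 7331 and 5438 on the saline arrays of WAT. Lep differed most in that list, at 2762 and 3283 under UAG, against 1495 and 392 under saline. Cidec and Lipe also did not overlap, while Adipoq, Fabp4 and Retn overlapped between treatments. Both saline arrays of WAT stood apart in other cell types, as given above. The part of these cells in the Cd163 difference was not tested. In muscle Cd163 was at 283 and 473 under UAG, against 190.2 and 223 under saline, again without overlap, with a difference of 0.83 ± 0.27 (adjusted p = 1.00). In liver it was at 338 and 328 under UAG, against 223 and 333 under saline, which overlapped, with a difference of 0.29 ± 0.20 (adjusted p = 1.00). Averaged over the 3 tissues the difference was 0.66 ± 0.14, with UAG arrays higher on average in 3 of 3 tissues, and did not pass (adjusted p = 0.356 over 26530 probe sets).

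The Cd163 values rest on single arrays to different degrees. In WAT leaving out each array in turn gave 0.80 to 0.91. In muscle the array with neutrophil granule genes, UAG 2, was the highest for Cd163, and without it the difference was 0.46, while without UAG 1 it was 1.20. In liver the difference was 0.00 without saline 1 and 0.58 without saline 2. Set tissue against tissue, the Cd163 differences under UAG stood apart by 0.02 ± 0.34 for WAT minus muscle, by 0.56 ± 0.34 for WAT minus liver and by -0.54 ± 0.34 for liver minus muscle (adjusted p = 1.00 each).

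In WAT the macrophage markers lay on both sides of 0. Of 12 tested, 5 were higher and 7 lower under UAG, with a median log2 difference of -0.02, against 0.01 over all probe sets, 51.8% of which were above 0. Without overlap, 6 members of all 3 panels were higher and 3 lower, out of 20, against 22% and 15.3% of all probe sets. Clec10a was at 1051 and 929 under UAG, against 844 and 734 under saline (0.33 ± 0.16, adjusted p = 0.756). Csf1r was at 2839 and 2974 under UAG, against 2574 and 2296 under saline (0.26 ± 0.16, adjusted p = 0.803), and its other 2 probe sets gave 0.18 and 0.19. Itgam was at 86.7 and 77.5 under UAG, against 89.4 and 155 under saline (-0.52 ± 0.30). Its highest value was on WAT saline 2, the array with smooth muscle and S100a8, and that array was also the highest WAT array for Cd68, Mrc1, Lyz2, Fcgr1 and Mpeg1. Without it the median of the macrophage markers was 0.15.

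The 6 B cell markers tested in WAT had a median of 0.26 with 5 of 6 higher under UAG and none called. The median was 0.0083 without UAG 1 and 0.51 without UAG 2. Cd22 and Pax5 did not overlap between treatments and the others did, such as Cd79a at 49.0 and 30.8 under UAG, against 32.2 and 22.8 under saline. Cd79a and Pax5, with saline means of 27.5 and 27.4, passed the filter through their UAG arrays. The count of 5 of 6 is thus partly set by the filter. Blk and Cr2, too dim to be tested, had slightly lower means under UAG. All 6 MHC class II genes tested in WAT were higher under UAG, by 0.09 to 0.37, and none was called. Of these genes 5 were higher without overlap, against 22% of all probe sets. For Ciita the gap was very small, with 41.20 and 34.78 under UAG, against 34.66 and 34.76 under saline. H2-Oa, of the same list but too dim to be tested, was lower without overlap, at 26.9 and 14.6 under UAG, against 31.7 and 40.2 under saline. The count of 6 is thus partly set by the filter. Retnla, a gene of alternatively activated macrophages that adipose tissue also expresses, was at 7221 and 6495 under UAG, against 4477 and 3683 under saline (0.75 ± 0.19, adjusted p = 0.644). In the same list Chil3 and Arg1 were lower under UAG on average, at -1.30 ± 0.58 and -1.25 ± 0.76, with both UAG arrays of both genes under 30. Chil3 was at 38.7 on saline 1 and 141 on saline 2, and Arg1 was above 30 on saline 2 alone, at 169.

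In muscle 10 of the 11 macrophage markers tested were higher under UAG, with a median log2 difference of 0.39, against 49.6% of all probe sets above 0. Timd4, near 30, was the 1 below 0, at -0.16 ± 0.31. Both UAG arrays lay above both saline arrays for 2 of these 11, Csf1r and Cd163, against 11.4% of the probe sets tested, and below both for 0, against 11.3%. Pax5 and Cd72, too dim to be tested, also did not overlap. Csf1r was at 1026 and 1167 under UAG, against 733 and 861 under saline, with a difference of 0.46 ± 0.18 (adjusted p = 1.00), and its other 2 probe sets gave 0.30 and 0.24. Mpeg1 was at 136 and 185 under UAG, against 44.6 and 147 under saline, which overlapped (0.97 ± 0.49). Lyz2 was at 1158 and 1814 under UAG, against 915 and 1232 under saline, which overlapped too (0.45 ± 0.25).

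The size of the median difference in muscle depended on which saline array was kept, and saline 2 stood apart in keratin genes, as given above. Muscle saline 1 was the lowest muscle array for Cd68, Csf1r, Mrc1, Cd163, Lyz2, Fcgr1, Mpeg1, Cd14 and Clec10a, and without it the median of the macrophage markers fell to 0.06. Without saline 2 the median was 0.66, and without UAG 2, the array with neutrophil granule genes, it was 0.37. All 11 genes shared by leukocytes were higher under UAG in muscle, with a median of 0.55 and none called, against 49.6% of all probe sets above 0. Of these genes 6 were higher without overlap, against 11.4% of all probe sets. The highest were Laptm5 (0.94 ± 0.31), Coro1a (0.88 ± 0.36), Rac2 (0.81 ± 0.38) and Arhgdib (0.70 ± 0.24). The geometric mean of these genes was 142.8 and 204.6 on the UAG arrays and 86.9 and 144 on the saline arrays, again with saline 1 lowest.

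**Figure D5:**
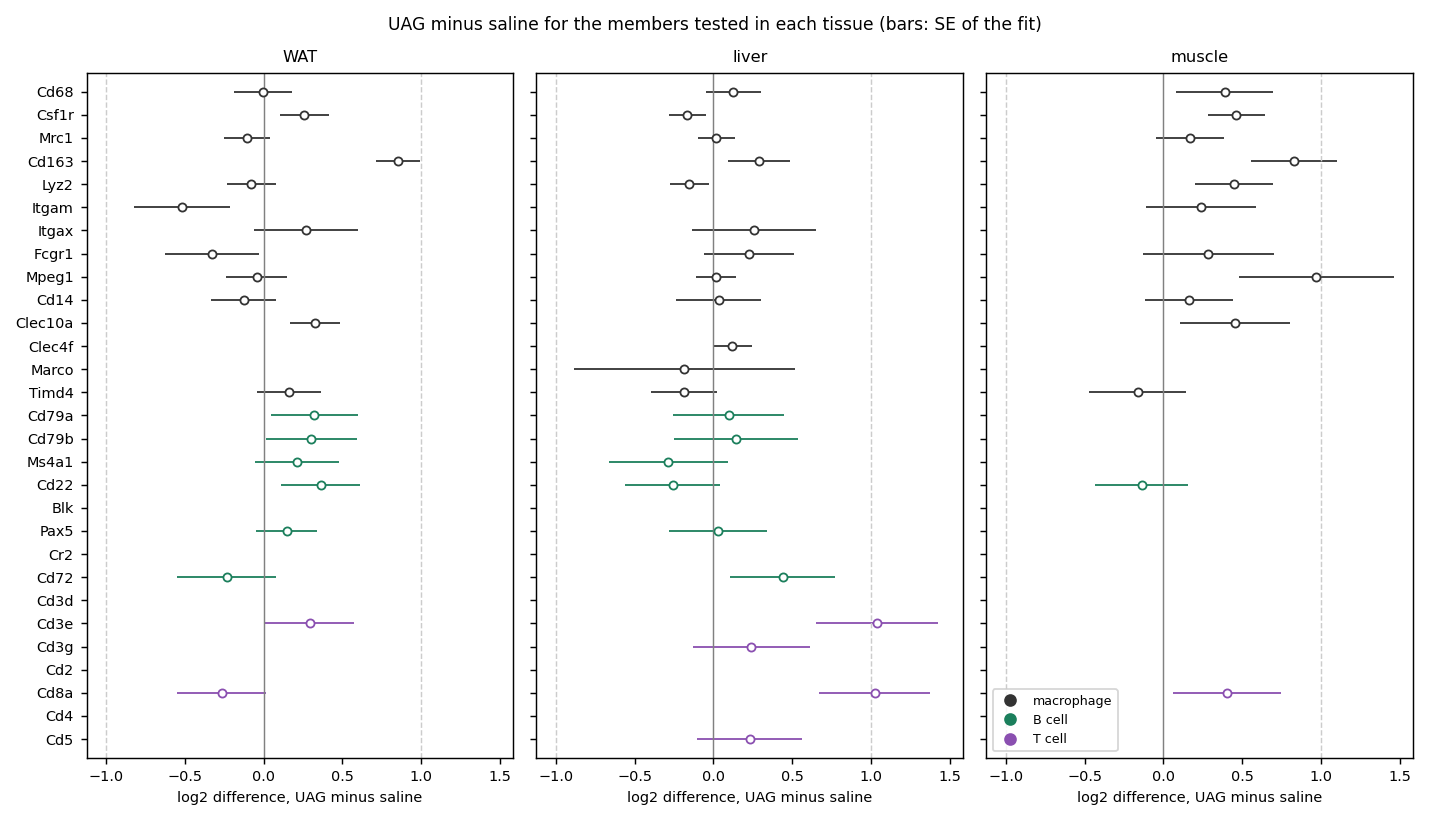
Log2 difference of UAG minus saline with the SE of the fit for the members tested in each tissue (20 in WAT, 13 in muscle, 22 in liver), with dashed lines at -1 and 1. Most muscle points lie to the right of 0, WAT and liver points lie on both sides, and Cd163 is at 0.85 in WAT and 0.83 in muscle.

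In liver the macrophage markers had a median difference of 0.03, with 8 of 12 higher and 4 lower under UAG, against 50.2% of all probe sets above 0. Both UAG arrays were above both saline arrays for 3 members of the 22 and below both for 2, against 15.3% and 15.2% of all. Csf1r was the macrophage marker without overlap, at 1449 and 1642 under UAG, against 1789 and 1676 under saline (-0.17 ± 0.12), while its other 2 probe sets gave 0.02 and 0.07. The Kupffer cell genes differed little. Clec4f was at 1020.0 and 929 under UAG, against 821 and 977 under saline (0.12 ± 0.13), Mpeg1 was 0.02 ± 0.13, and Timd4 -0.19 ± 0.21. Marco, whose arrays spread within each group, was -0.18 ± 0.70. Of the 6 further Kupffer cell genes none was called, with a median of 0.03. Id3 was the highest at 0.61 ± 0.13 (adjusted p = 0.807) and Spic the lowest at -0.53 ± 0.39. Of the genes shared by leukocytes, 10 of 11 were lower under UAG, by little (median -0.10), and none was called.

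The T cell markers gave the only 2-fold value. Cd8a was at 57.4 and 84.7 under UAG, against 20.1 and 39.2 under saline, without overlap, with a ratio of means of 2.05 after the floor and a log2 difference of 1.02 ± 0.35 (adjusted p = 1.00). The value is that of 1 of 5 Cd8a probe sets. In the other 2 that could be tested the difference was 0.06 and -0.06, so they did not share it. Cd3e was at 75.7 and 95.5 under UAG, against 57.4 and 24.5 under saline, without overlap (1.04 ± 0.39, adjusted p = 1.00). Without saline 2, its lowest array, the difference was 0.57. All 4 T cell markers tested in liver were higher under UAG, with a median of 0.63. Of these, Cd3g (0.24 ± 0.37) and Cd5 (0.23 ± 0.33) overlapped between treatments. The filter took the mean of both treatments, and Cd8a, averaging 29.6 under saline and 71.0 under UAG, passed it through its UAG arrays. The count of 4 is thus partly set by the filter. Cd2, Cd3d and Cd4, too dim to be tested, had lower means under UAG, with all means under 30. Further T cell genes lay on both sides of 0. In the list of other T cell genes 3 of 3 tested were lower under UAG, with a median of -0.19. The rest of that list was too dim to be tested, so this count too is partly set by the filter. Among the genes left out, Bcl11b was higher without overlap, at 35.5 and 39.8 under UAG, against 3.12 and 16.4 under saline. Cd6 was lower without overlap, at 4.69 and 6.54 under UAG, against 9.15 and 7.84 under saline. Of 4 tested genes of T cell receptor signalling, 2 were higher and 2 lower, with a median of 0.03 and none called, and Themis (0.74 ± 0.31) and Skap1 (-0.74 ± 0.34), which lay farthest from 0, did not overlap between treatments.

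The B cell markers of liver had a median of 0.06, with 4 of 6 higher under UAG, and lay below 0 without saline 1 and, at -0.14, without saline 2. Cd72 was at 61.2 and 79.9 under UAG, against 44.3 and 60.1 under saline (0.44 ± 0.33), and Cd22 at 54.8 and 59.1 under UAG, against 72.1 and 64.3 under saline (-0.26 ± 0.30). Neither passed.

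Averaged over the 3 tissues, 0 of 21 members were called, against 0.0113% of all probe sets higher and 0.0188% lower, and 3 of 21, Cd163, Csf1r and Cd3e, were below an unadjusted p of 0.05, all higher under UAG, against 3.16% of all higher and 2.25% lower. Of the 21, 17 were above 0, against 50.3% of all. Csf1r averaged 0.18 ± 0.08 (adjusted p = 0.918) and Cd3e 0.46 ± 0.18 (adjusted p = 0.876). The difference of the UAG effect between tissues was called for 0 of 21 members in each of its 3 contrasts, against 0.00377% of all probe sets in 1 direction of 1 contrast and 0% otherwise. Below an unadjusted p of 0.05 were Cd8a, with WAT minus liver at -1.29 ± 0.47, and Csf1r, with liver minus muscle at -0.63 ± 0.20. The other 2 Csf1r probe sets gave -0.29 ± 0.26 and -0.17 ± 0.22 for that contrast. For WAT minus muscle, WAT minus liver and liver minus muscle, 1.84%, 2.68% and 1.38% of all probe sets were below it and higher and 1.73%, 2.18% and 1.43% lower. That fit takes the tissues as independent samples.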

How the data were processed

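The authors hybridised RNA of 12 samples (2 arrays for each of 3 tissues and 2 treatments) to Affymetrix Mouse Genome 430 2.0 arrays. Per the labels, the signals come from MAS5, and the study's methods describe a quantile normalization, an intensity threshold of 30 and a ratio of means of at least 2. The deposited values are on a log2 scale and go below that threshold, so it had not been applied, and they were used as deposited after being turned back into intensities. Gene names come from the platform annotation. Of 45037 probe sets that are not controls, 34945 had 1 symbol, 932 several and 9160 none, and genes were named only from the first kind.

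Values under 30 were set to 30, log2 values were fitted with limma 3.58.1 in R 4.3.3 (lmFit, eBayes with an intensity trend) over probe sets with a mean of at least 30, and p-values were adjusted by Benjamini-Hochberg over all of those. All tests are two-sided. UAG was compared with saline on the 4 arrays of a tissue, and tissues, the mean UAG effect and its differences between tissues on all 12 arrays with a mean for each group. The number of arrays limits the precision. Detection calls were not used. The fit was tested on simulated data. A search for signalling motifs in the proteins was not run.

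The 30 genes and the further lists were chosen with earlier results of these data known. The text names all members and, of a further list, those past the threshold in a comparison or, where none or more than 4 passed, at most the 4 with the largest difference, together with markers needed to describe the arrays. Spi1 and, against liver, Id3 fall outside that rule and were chosen after their values were seen. Alternatives were another floor or none, another filter or none, other scalings, no trend, a replicate block, the mean of all probe sets, other limits, saline arrays only and leaving out each array.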

Additional observations from a re-analysis of the deposited data

How the results depend on the processing

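The 21 tissue calls of members kept their direction in all alternatives in which they were tested. All 21 were also called with no floor, no filter, quantile normalization over 12 arrays, scaling to the 75th percentile, no intensity trend, the mean of all probe sets and the saline arrays alone, 14 with a floor of 100 and 9 at a log2 difference of at least 2. At a mean of at least 100, 15 were tested and all called. With a floor of 100, WAT was lower than liver in 1 member instead of 3, and liver was higher than muscle in 2 instead of 4 and lower in 0 instead of 1. A filter at 100 gave 1 for WAT below liver and 2 for liver above muscle. No floor gave 9 for liver above muscle. Adjusted p alone gave 8 for WAT above liver, 7 for WAT below liver, 14 for liver above muscle and 2 for liver below muscle. A limit of 2 left 1 for WAT above muscle and 1 for WAT above liver. Leaving out single arrays ended 1 call without muscle saline 1 (Mpeg1, WAT minus muscle 0.96) and 1 without muscle UAG 1 (Itgam, 0.9966).

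No member was called between UAG and saline under any alternative run. Over all probe sets the calls were 0 in WAT, 0 in muscle and 1 in liver, against 6, 4 and 2 with a floor of 100, 9, 11 and 0 with no filter, and 14, 0 and 3 in 1 fit of all 12 arrays. In liver a filter at 100, no trend, the mean of all probe sets and leaving out any 1 array each gave 0. The count of members changed 2-fold was 0 in muscle and 3 with no floor there, and lay between 0 and 2 when arrays were left out (2 without muscle saline 2, 1 without muscle UAG 1). In liver it was 1, and 4 with no floor, 2 by geometric means, and 0 with a floor of 100 and with the mean of all probe sets. No Cd8a value reached 100, so that floor had to remove it. The liver count lay between 1 and 2 when arrays were left out, with 2 without saline 1, without saline 2 and without UAG 1. Without UAG 2 it was 1.

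The deviations of same-numbered arrays were at most weakly correlated (between -0.138 and 0.118 over 15 pairs of groups). For the 6 pairs of the same treatment in other tissues the correlations lay between 0.004 and 0.118. Since some arrays stood apart in other cell types, these values cannot decide whether same-numbered tissues share a mouse. With the replicate number as a block, 0 members were called in each of the 3 tissues, while 22 probe sets passed for WAT, 17 for liver and none for muscle, and all 21 tissue calls were kept. A crossed pairing in WAT, added after seeing the data, also called 0. Most lymphocyte markers lie near the floor, which shortens their differences. With a floor of 100 the median UAG difference of the B cell and of the T cell markers was 0 in each tissue. This had to be so, since none of their values reached 100 (the highest was Cd3e at 95.5). With the mean of all probe sets that of the T cell markers in liver was 0.24.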
